A study of Mus musculus with 2 samples.

Results

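Regulators of the bone, cartilage and fat lineages were followed in C2C12 myoblasts, namely Runx2, Sp7, Alpl, Sox9, Msx1, Msx2, Dlx5, Pparg, Cebpa and Cebpb. These 10 genes were taken by symbol from the 21829 gene symbols with a value in the deposited tables, and all 10 were found there. C2C12 is an immortalised mouse myoblast line. WT denotes the unedited line and KO the line labelled GNE KO, in which Cas9 left an indel in Gne, the gene of the bifunctional enzyme that starts sialic acid synthesis. Both lines, which the study calls myoblasts, were grown in serum-containing medium. The methods derive KO cells from single clones, so that traits of a clone and effects of the edit cannot be told apart. Polyadenylated RNA was sequenced from 1 WT and 1 KO library, so no difference below has a replicate check and no P value is given.

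Mesenchymal progenitors, and C2C12 cells under suitable signals, can enter several lineages, and each lineage is set in motion by a small group of transcription factors. Runx2, with its partner Cbfb, opens the osteoblast programme, Sp7 (osterix) acts after it, and Alpl encodes the tissue-nonspecific alkaline phosphatase of mineralising cells. Msx1, Msx2 and Dlx5 are homeobox factors that respond to bone morphogenetic proteins, and C2C12 myoblasts are a classic model in which such proteins divert cells from muscle to bone. Sox9 governs cartilage formation, whereas Cebpb and then Pparg and Cebpa form the cascade that drives fat cell formation.

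The sequences around transcription starts of the members are shown first, and whether they bear on the level of a gene was not tested. RefSeq windows from 250 bases before to 50 bases after a start were matched for 7 of the 10 members, and the windows given here are on GRCm38.p6, 5′ to 3′ on the strand of the gene. For Cebpa (chr7:35119043-35119342, plus strand), the member with the largest log2 fold change between the libraries, and Cebpb (chr2:167688665-167688964, plus strand), the member with the highest level, capitals mark TATAAA, and in Cebpb also TGACG, the core of a cyclic AMP response element. For Runx2 (chr17:44814578-44814877, minus strand), capitals mark ACCACA, the core bound by RUNX proteins. For Msx1 (chr5:37824536-37824835, minus strand), which had transcripts in both libraries, and Msx2 (chr13:53472731-53473030, minus strand), which had almost none, capitals mark CCAAT. For the third of 3 Pparg starts (chr6:115421816-115422115, plus strand), capitals mark TTGCNNAA, a core of C/EBP sites. All motifs were searched on both strands, so that capitals may show the reverse complement of a motif, and their letters were chosen with these sequences known.
Cebpa: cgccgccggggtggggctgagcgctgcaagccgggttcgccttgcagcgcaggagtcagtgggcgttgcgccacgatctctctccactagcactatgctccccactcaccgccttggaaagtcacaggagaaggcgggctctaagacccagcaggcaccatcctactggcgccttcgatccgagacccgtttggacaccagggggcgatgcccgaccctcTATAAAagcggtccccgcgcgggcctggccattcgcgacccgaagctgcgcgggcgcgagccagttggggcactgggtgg
Cebpb: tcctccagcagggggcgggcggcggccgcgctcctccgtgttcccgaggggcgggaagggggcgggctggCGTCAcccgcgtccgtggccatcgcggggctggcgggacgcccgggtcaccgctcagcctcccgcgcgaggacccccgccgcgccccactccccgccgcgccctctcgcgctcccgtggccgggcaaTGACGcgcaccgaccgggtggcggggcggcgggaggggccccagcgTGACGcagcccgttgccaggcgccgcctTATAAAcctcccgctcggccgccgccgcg
Runx2: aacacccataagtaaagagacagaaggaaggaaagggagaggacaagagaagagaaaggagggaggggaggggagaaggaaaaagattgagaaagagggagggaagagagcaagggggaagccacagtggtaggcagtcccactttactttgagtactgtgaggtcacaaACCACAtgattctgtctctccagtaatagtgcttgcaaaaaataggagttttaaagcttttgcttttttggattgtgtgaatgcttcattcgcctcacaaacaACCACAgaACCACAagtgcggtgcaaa
Msx1: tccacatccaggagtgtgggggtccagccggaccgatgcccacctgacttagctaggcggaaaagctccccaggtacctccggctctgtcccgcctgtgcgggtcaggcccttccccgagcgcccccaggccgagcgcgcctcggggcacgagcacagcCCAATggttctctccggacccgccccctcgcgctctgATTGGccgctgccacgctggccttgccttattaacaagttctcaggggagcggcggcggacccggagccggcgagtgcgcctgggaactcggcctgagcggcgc
Msx2: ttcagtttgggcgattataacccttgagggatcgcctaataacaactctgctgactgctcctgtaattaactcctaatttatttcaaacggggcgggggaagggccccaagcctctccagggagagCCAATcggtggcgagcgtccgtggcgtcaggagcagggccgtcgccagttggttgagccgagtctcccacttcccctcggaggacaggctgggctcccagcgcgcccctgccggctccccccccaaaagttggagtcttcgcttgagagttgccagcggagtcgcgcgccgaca
Pparg: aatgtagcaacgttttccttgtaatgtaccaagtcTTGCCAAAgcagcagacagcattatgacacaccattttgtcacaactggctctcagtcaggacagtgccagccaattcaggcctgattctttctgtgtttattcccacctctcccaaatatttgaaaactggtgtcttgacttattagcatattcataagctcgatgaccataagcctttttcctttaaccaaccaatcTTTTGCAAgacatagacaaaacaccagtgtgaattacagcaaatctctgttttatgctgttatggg

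The Runx2 window held 3 matches of ACCACA, a motif found in 16.8% of all 32851 RefSeq windows of this length, and none of the other 9 windows of members held it. TATAAA began at -30 from the start in Cebpa and at 21 in Cebpb, occurred in 1 further window each of Alpl and Pparg, and was found in 13.6% of all windows. The Cebpb window held 3 matches of TGACG, which occurred in 20.8% of all windows and also in Msx2 and Alpl. The third Pparg window held 2 matches of TTGCNNAA and the Runx2 window 1, against 10.8% of windows with any. CCAAT, in 37.4% of windows, was matched 2 times in Msx1 and 1 time each in Msx2 and the second Pparg window. The third Pparg window held 2 matches of CCAAT, which are not in capitals. GC content was 80.7% for Cebpb, 67.3% for Cebpa, 70.0% for Msx1, 61.0% for Msx2, 45.3% for Runx2 and 40.3% for the third Pparg start, beside a median of 52.7% over all windows. A match of letters is a description and not a site of binding.

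Of the 10 regulators, 6 had a mean of at least 1 FPKM over the 2 libraries (fragments per kilobase of transcript scaled to the size of the library, the unit inferred for the deposited values), and 4 lay near or at 0. The 6 were Runx2, Sox9, Msx1, Pparg, Cebpa and Cebpb, and the 4 were Sp7, Alpl, Msx2 and Dlx5. A mean of at least 1 FPKM was reached by 48.3% of all genes. Among the 6, 1 was more than 2-fold higher in the KO library, which was Cebpa, and 0 were more than 2-fold lower. In the same comparison 2.84% of the 10542 genes past this filter lay beyond 2-fold on the higher side and 3.43% on the lower side. Folds are log2((KO + 1)/(WT + 1)), a scale that understates differences of low genes. The median over the 6 was -0.0066, with 3 higher and 3 lower, beside 0.0061 over all genes past the filter. Summed over the 10 members, values came to 117 FPKM in WT and 113 FPKM in KO.

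**Figure D1:**
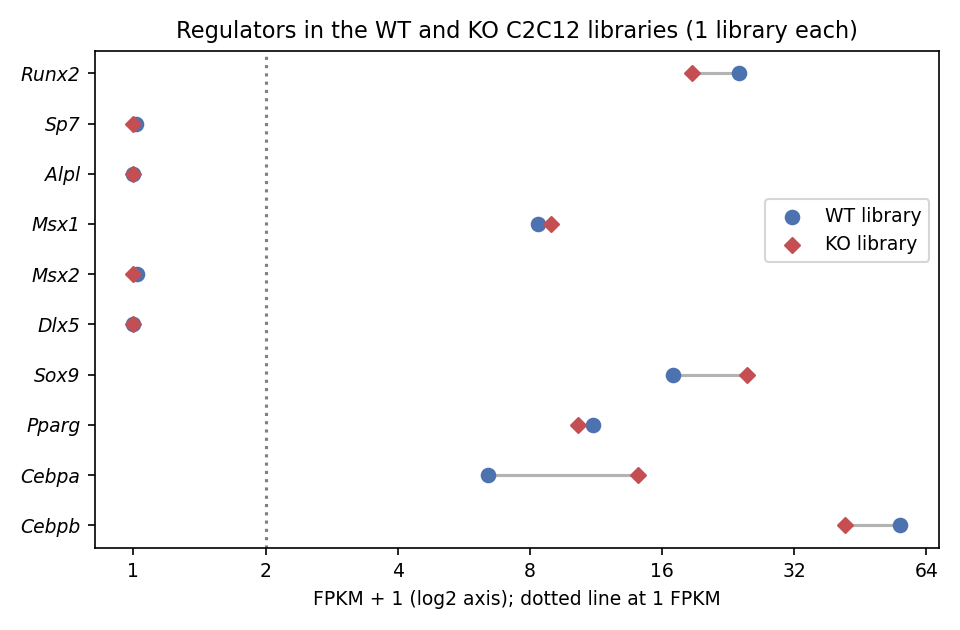
Values of the 10 regulators as FPKM + 1 on a log2 axis, with 1 point for the WT library (blue circle) and 1 for the KO library (red diamond) and no error bars because each line had 1 library. Cebpa shows the widest gap, from 5.44 to 13.1 FPKM, and Sp7, Alpl, Msx2 and Dlx5 sit at the left edge in both libraries.

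Totals over all entries were 568410 for WT and 574144 for KO, and the number of reads is unknown. Low values came in steps. Over genes with a single annotated transcript, the value times transcript length in kilobases clustered between 0.025 and 0.055 for 44 of 104 low genes in WT and 55 of 113 in KO, with medians of 0.0377 and 0.0426. Taken as the worth of 1 fragment, these steps put between 361 and 3933 fragments behind each value of the 6 members past the filter, an estimate that rests on the length of the canonical transcript. Gne was 6.67 FPKM in WT and 7.34 FPKM in KO, and since the edit is an indel its RNA amount is no check of the labels. Of 12 myoblast markers, 8 passed the filter, with 4 beyond 2-fold on the lower side and 1 on the higher side in KO, against 3.43% and 2.84% of all genes past the filter, and the 12 summed to 302 FPKM in WT and 110 FPKM in KO. Myod1 went from 59.97 FPKM to a listed 0 and Myf5, the higher one, from 9.14 to 20.3 FPKM, while Pax7 was listed at 0 in both. The others on the lower side were Des, at 97.6 and 3.84 FPKM in WT and KO, Cdh15, at 16.6 and 0.701 FPKM, and Chrna1, at 15.3 and 0.917 FPKM. Of 10 fibroblast markers, 5 passed, with Postn beyond 2-fold on the higher side and Cd34 on the lower side, and sums of 693 and 724 FPKM. Of 6 macrophage markers, 1 passed (Cd68, 2.85 and 1.06 FPKM), with Ptprc and Adgre1 listed at 0, and none of 5 endothelial and 5 epithelial markers exceeded 0.037 FPKM. The part of these marker differences in the values below was not tested. In bulk RNA, fewer cells with a transcript and less of it per cell cannot be told apart.

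Among the osteogenic members, the early factor Runx2 had transcripts in both libraries while Sp7 and Alpl lay near or at 0. Runx2 was 22.96 FPKM in WT and 17.7 FPKM in KO, a log2 fold change of -0.36. It was thus somewhat lower in KO, though 30.5% of all genes past the filter lay further from 0. Its partner Cbfb was 56.4 and 68.3 FPKM in WT and KO, so that the ratio of Cbfb to Runx2 was 2.46 in WT and 3.85 in KO. The related factor Runx1 was at a similar level to Runx2, at 23.4 and 19.9 FPKM, and Runx3 was 18.2 and 17.1 FPKM. All 3 RUNX genes therefore had their lower value in KO, each by less than 2-fold. After subtraction of the median of genes within 5 Mb, the log2 fold change was -0.25 for Runx2. For Runx1 and Runx3 it then lay above 0, at 0.11 and 0.05.

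Sp7 was 0.013 FPKM in WT and listed at 0 in KO. The WT value multiplied by transcript length was 0.044, about the worth of 1 fragment, and no difference between the libraries can be read from it. Alpl was listed at 0 in both. Of 79 ribosomal protein genes, 3 were listed at 0 in WT and 2 in KO, all of them members with restricted expression (Rpl10l, Rpl39l and Rpl3l). Of 39 proteasome subunit genes, 2 were listed at 0 in WT and 3 in KO (Psma8, Psmb11 and Psmb8 in either library). Such genes are mostly well above 0, so they cannot show whether a 0 of a low gene means absence.

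The homeobox members separated by gene and not by library. Msx1, which keeps progenitors undifferentiated, was 7.36 FPKM in WT and 7.96 FPKM in KO, a log2 fold change of 0.10, and 74.9% of genes past the filter lay further from 0. Its paralogue Msx2 was 0.018 FPKM in WT, again about 1 fragment by length, and listed at 0 in KO. Dlx5 was listed at 0 in both libraries, and so was Dlx6, its neighbour on chromosome 6. Other Dlx genes were transcribed. Dlx1 was 2.59 and 2.96 FPKM and Dlx2 was 6.29 and 4.73 FPKM in WT and KO. Dlx3, a homeobox factor of skin, tooth and bone, was 8.05 FPKM in WT and 1.14 FPKM in KO, a log2 fold change of -2.08.

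Dlx3 was the only one of the 10 osteogenic factors past the filter, out of 15 listed, to lie beyond 2-fold. Its mean of 4.59 FPKM falls in a range, 1 to 5 FPKM, where 15.0% of genes were beyond 2-fold in either direction. The median of the 10 was -0.04, and the highest of them, the stress and osteoblast factor Atf4, was 413 and 282 FPKM in WT and KO. Twist1 was listed at 0 in both, whereas Twist2, a related inhibitor of Runx2 function, was 61.9 and 62.3 FPKM.

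Genes of the osteoblast itself differed in direction: of those past the filter, 11 were higher in KO and 3 lower. Of 24 listed, 14 passed the filter, beside 48.3% of all genes. Of the 14, 5 lay beyond 2-fold on the higher side in KO and 1 on the lower side, beside 2.84% and 3.43% of all genes past the filter. The median of the 14 was 0.56, beside 0.0061 over all genes past the filter. The 5 were Col1a1, Cdh11, Ogn, Col1a2 and Phex. Col1a1 and Col1a2, the chains of type I collagen that fibroblasts make as well, were 9.66 and 273 FPKM and 237 and 621 FPKM in WT and KO. Cdh11, a cadherin of mesenchymal cells, was 0.692 and 30.7 FPKM, and Ogn (osteoglycin), a small proteoglycan of connective tissue, was 34.3 and 99.7 FPKM. Phex, an endopeptidase of osteoblasts and osteocytes, was 1.83 and 5.31 FPKM. Its mean of 3.57 FPKM falls in the range of 1 to 5 FPKM, where 15.0% of genes were beyond 2-fold in either direction. Without the collagen genes, which earlier results on these libraries had picked out, 3 of 12 were more than 2-fold higher and the median was 0.35. Postn, a fibroblast marker, was 0.440 and 33.9 FPKM in WT and KO, and its part in these values was not tested.

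Several genes particular to mineralising bone cells were low or listed at 0. Bglap2, 1 of the osteocalcin genes, was 5.09 FPKM in WT and 1.79 FPKM in KO, with a mean in the same range as Phex. Its copy Bglap was 1.09 and 0.226 FPKM. Reads of these near-identical copies can be shared in counting, so the split between them is uncertain. Ibsp, Mepe and Sost were listed at 0 in both libraries, whereas Phospho1, a phosphatase of mineralising cells, was 90.4 and 57.7 FPKM. A listed 0 was found for 37.2% of all genes in WT and 37.7% in KO. The highest gene of the list, Spp1 (osteopontin), which many cell types secrete, was 1526 FPKM in WT and 2200 FPKM in KO, and Sparc (osteonectin) was 679 and 687 FPKM.

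Sox9, the chondrogenic member, was 15.96 FPKM in WT and 23.99 FPKM in KO, a log2 fold change of 0.56. KO thus held 1.504 times the WT value, and 16.3% of genes past the filter lay further from 0. Sox9 was below Runx2 in WT and above it in KO, with a ratio of Sox9 to Runx2 of 0.695 in WT and 1.35 in KO. The cartilage genes that Sox9 is known to switch on were near 0 in both libraries. Of 27 chondrocyte genes, 1 passed the filter, beside 48.3% of all genes, and the single gene was Trps1, a transcription factor, at 4.07 and 6.28 FPKM. Col2a1, the main cartilage collagen, was 0.051 and 0.008 FPKM, and Acan (aggrecan) was listed at 0 in both. The Sox9 partners Sox5 and Sox6 were 0.268 and 0.006 FPKM in WT and 0.269 and 0.160 FPKM in KO. Below the filter, Col11a1 was 0.004 FPKM in WT and 0.823 FPKM in KO, and Hapln1 was listed at 0 in WT and was 0.5 FPKM in KO.

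Among the adipogenic members, Cebpa was higher in KO while Cebpb and Pparg were not. Cebpa, which maintains the fat cell state and restrains proliferation, was 5.44 FPKM in WT and 13.1 FPKM in KO, or 2.41 times the WT value. Its log2 fold change of 1.13 lay above that of 97.8% of genes past the filter, and among genes with a mean of 5 to 20 FPKM 5.23% were beyond 2-fold in either direction. With a pseudocount of 5 in place of 1 it was 0.80, which no longer passes 2-fold. With a limit of 1.5-fold on the log2(value + 1) scale, Cebpa was again the only member beyond it, where 15.2% of genes past the filter lay beyond. Sox9 stood close to that limit and passed it with a pseudocount of 0.1, at a log2 fold change of 0.585.

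Cebpb, the early factor of the cascade, had the highest level of all members in both libraries, at 54.9 FPKM in WT and 40.7 FPKM in KO. Its log2 fold change was -0.42, and 24.5% of genes past the filter lay further from 0. Among genes with a mean of 20 FPKM or more, 3.35% were beyond 2-fold in either direction. Cebpa and Cebpb thus differed in opposite directions: Cebpb was 10.1 times Cebpa in WT and 3.10 times in KO. Pparg, the nuclear receptor at the centre of the programme, was 10.2 FPKM in WT and 9.31 FPKM in KO, a log2 fold change of -0.11. The values are sums over the transcripts of a gene, so the 3 RefSeq starts of Pparg cannot be told apart. The ratio of Cebpa to Pparg was 0.535 in WT and 1.41 in KO.

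Of 29 other adipogenic factors, 19 passed the filter, beside 48.3% of all genes, with 9 higher, 10 lower and a median of -0.025. On the log2(value + 1) scale, 0 of the 19 lay beyond 2-fold, beside 2.84% higher and 3.43% lower of all genes past the filter. The highest of the 19 was the glucocorticoid receptor Nr3c1, at 37.4 and 46.6 FPKM. Of the C/EBP family, Cebpg was 14.1 and 10.5 FPKM, Cebpd 3.14 and 2.98 FPKM, and Cebpe was listed at 0 in both. Ppard was the most abundant PPAR gene, at 27.9 and 21.7 FPKM, and Rxra, which pairs with PPARs, was 27.0 and 29.6 FPKM. Stat5a, at 13.2 and 6.45 FPKM, came nearest to the 2-fold limit, with a log2 fold change of -0.93, and its plain WT value was 2.04 times the KO value. Zfp423 and Dlk1, genes of preadipocytes below the filter, were at most 0.039 FPKM, and they do not stand for the list. Among the 19, Gata2 was 17.5 and 24.6 FPKM in WT and KO and Ebf1 3.88 and 6.77 FPKM. Klf5 differed in the other direction, at 30.6 and 18.7 FPKM.

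Several genes that mark the mature fat cell were at 0 or near it. Of 27 adipocyte genes, 13 passed the filter, beside 48.3% of all genes. Of the 13, 1 lay beyond 2-fold on the higher side, 1 on the lower side and 11 between, with a median of -0.10. The shares over all genes past the filter were 2.84% and 3.43%. Of the 11, Dgat2 and Lipe, enzymes of triglyceride synthesis and breakdown, had plain WT values 2.50 and 2.11 times those of KO. Adipoq, Plin1, Cidec, Lep and Cfd were listed at 0 in both libraries, and Fabp4 was listed at 0 in WT and was 0.321 FPKM in KO. Of all genes, 37.2% were listed at 0 in WT and 37.7% in KO. Lpl (lipoprotein lipase) was 0.893 FPKM in WT and 17.8 FPKM in KO, a log2 fold change of 3.32. Angptl4, which encodes an inhibitor of lipoprotein lipase, was 14.1 FPKM in WT and 5.12 FPKM in KO, a log2 fold change of -1.31. The other genes past the filter serve lipid handling in many cells, among them Fabp5, the highest of the list, at 104 and 137 FPKM, and Scd1, at 110 FPKM in both.

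**Figure D2:**
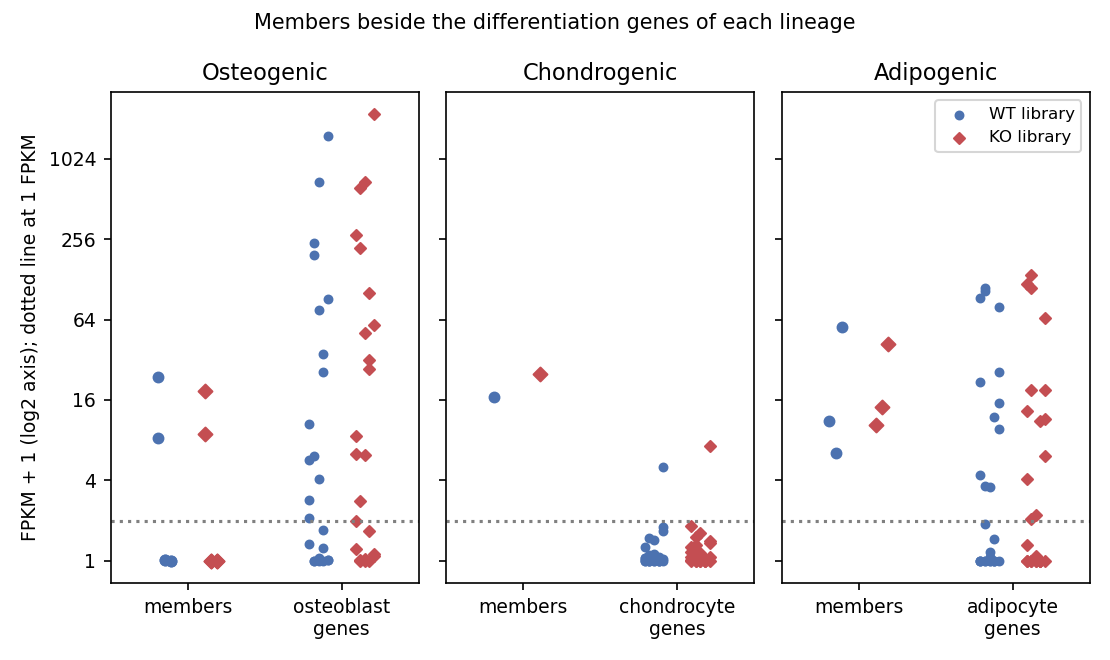
FPKM + 1 on a log2 axis for the members of each lineage and for the listed differentiation genes, with 1 point per gene and library (blue circles, WT; red diamonds, KO). Sox9 lies at 15.96 and 23.99 FPKM while 26 of 27 chondrocyte genes have a mean below the dotted line at 1 FPKM, and osteoblast and adipocyte genes spread from 0 to their highest values of 2200 and 137 FPKM.

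**Figure D3:**
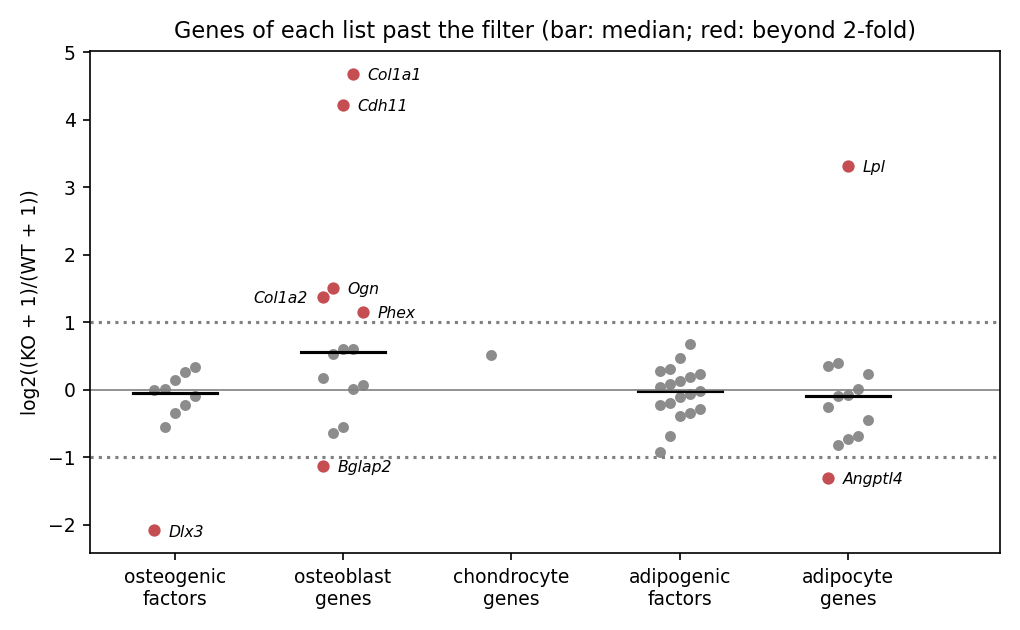
Log2((KO + 1)/(WT + 1)) of every listed gene with a mean of at least 1 FPKM, by list, with the median as a bar for lists of more than 1 such gene and genes beyond 2-fold in red. The osteoblast list holds 5 genes above the upper limit and 1 below the lower, and the 19 adipogenic factors all lie between the limits. Of all genes past the filter, 2.84% lie above the upper limit and 3.43% below the lower.

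Set against all genes past the filter, whose middle 50% ran from -0.21 to 0.23, Pparg and Msx1 fell inside this range and the other 4 members outside it. Only Cebpa passed the 2-fold limit. The order of levels from highest to lowest was Cebpb, Runx2, Sox9, Pparg, Msx1 and Cebpa in WT, and Cebpb, Sox9, Runx2, Cebpa, Pparg and Msx1 in KO. Cebpa thus held the sixth place in WT and the fourth in KO. With 1 library each, which neighbours in these orders differ beyond the spread of replicates is unknown.

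**Figure D4:**
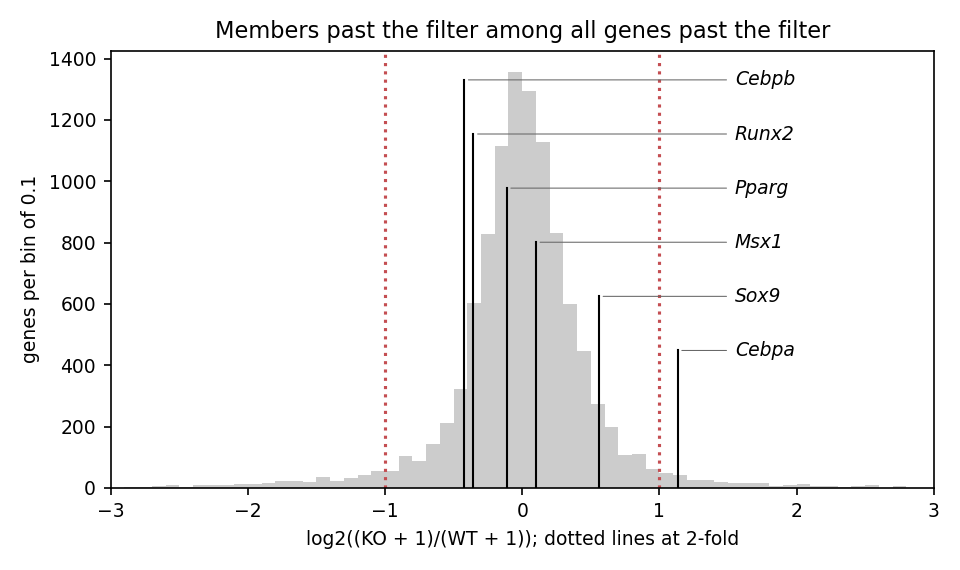
Histogram of log2((KO + 1)/(WT + 1)) over the 10542 genes past the filter in bins of 0.1 between -3 and 3 (49 genes lie beyond), with a vertical line at each of the 6 members past the filter. Cebpa, at 1.13, is right of the upper dotted 2-fold line and the other 5 lie between -0.42 and 0.56.

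Each member was also set beside the genes around it, as far as 5 Mb away. Genes were placed by symbol on GRCm39, with GENCODE vM39. Cebpa is a gene of 1 exon on chromosome 7 (chr7:34818718-34821353, plus strand), and its 52 surrounding genes past the filter had a median log2 fold change of -0.17. Cebpg, the nearest gene past the filter to Cebpa, had a log2 fold change of -0.39, and the next 3, Pepd, Gpatch1 and Rhpn2, had -0.11, -0.37 and -0.61. Cebpa was thus higher in KO where its 4 nearest neighbours were lower, and its value minus the neighbour median was 1.31. For Sox9 (chr11:112673009-112678586, plus strand) the neighbour median was 0.00012 over 67 genes, but its 4 nearest genes past the filter were uneven. Slc39a11, the nearest, was 4.23 FPKM in WT and 11.9 FPKM in KO, and Kcnj2 was 5.46 and 13.4 FPKM. Both lay beyond 2-fold on the higher side, the direction of Sox9. Cog1, at 16.5 and 15.6 FPKM, and Cdc42ep4, at 11.7 and 13.8 FPKM, lay within 2-fold. Whether Sox9 and these genes differ together was not tested. For Runx2 (chr17:44806874-45125684, minus strand) the neighbour median was -0.11 over 65 genes, and the value of Runx2 minus it was -0.25.

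Cebpb (chr2:167530835-167532338, plus strand), also a gene of 1 exon, had a neighbour median of -0.077 over 65 genes. It overlaps the gene listed as Tmem189 (Peds1 in GENCODE) on the opposite strand, at 27.4 FPKM in WT and 24.3 FPKM in KO. Runx2 overlaps Supt3 on the opposite strand, at 11.3 and 11.9 FPKM. Strand-specific kits were used, but the strand setting of the counting is not given in the sources used here, so reads of these overlaps may be assigned to either gene. Cebpa, Sox9, Pparg, Msx2 and Runx2 also overlap long noncoding RNA genes on the opposite strand, such as Gm45091 at Cebpa, which have no listed value. Whether reads of these noncoding genes enter the values of the members was not tested. Msx1 (chr5:37977829-37981928, minus strand) and Pparg (chr6:115337675-115468268, plus strand) had neighbour medians of -0.073 over 51 genes and 0.030 over 54 genes.

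**Figure D5:**
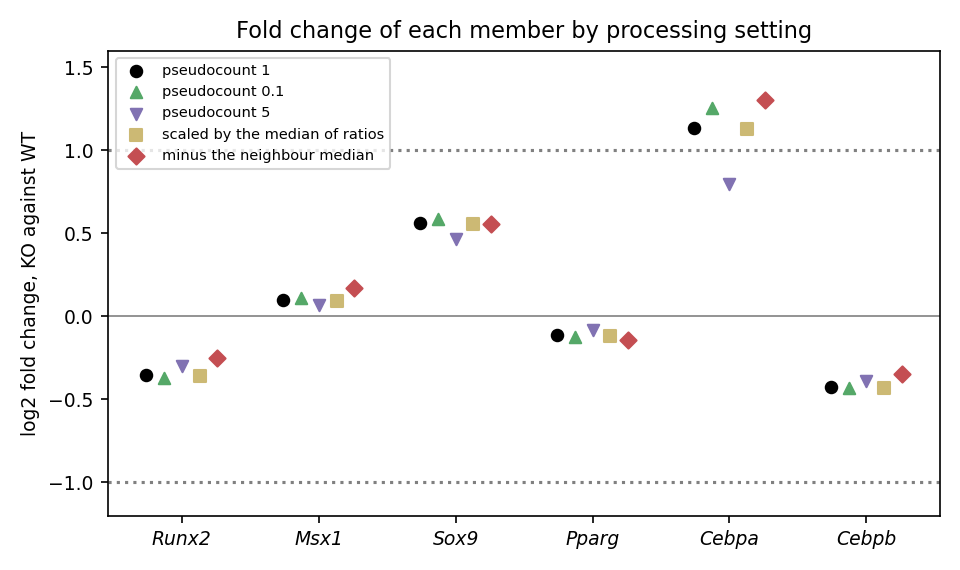
Log2 fold change of KO against WT for the 6 members past the filter under 5 settings, 1 point each: pseudocounts of 1, 0.1 and 5, scaling by the median of ratios, and subtraction of the median of genes within 5 Mb. All points of a gene lie on the same side of 0, and Cebpa runs from 0.80 to 1.31 while no other member reaches a dotted 2-fold line.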

How the data were processed

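RNA of C2C12 cells was measured in 1 WT and 1 KO library. The authors deposited a table for each library with a single value per symbol. The deposited values are treated as FPKM, made by the authors with RSEM as far as the sources tell. Low values step with transcript length, and the totals differ between the libraries. TPM also steps with length, and its totals can differ where only part of the genes is given, so the unit is not settled. The tables do not name their unit, and the study's methods speak of expected counts and TPM from RSEM. The study's methods give trimming, STAR and RSEM 1.3.3 with GRCm39, and the submitters' processing notes list GRCm38. Sources also differ on kit and sequencer (Illumina per the labels, MGI per the supplement). Of 21853 entries, 24 that repeated a symbol were dropped in favour of the higher mean.

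Folds were log2((KO + 1)/(WT + 1)), taken where the mean reached 1 FPKM, and 2-fold is the size limit of the study's methods. With 1 library per group no test was possible. The script for folds was tested on simulated data. All 10 members are named. A rule named genes of each list other than the cell type markers. It took up to 4 genes beyond 2-fold in each direction and the gene with the highest mean. Other genes, Phex among them, were named after their values were seen. Of the marker lists, all genes beyond 2-fold are named. With 2 libraries, likeness of patterns between genes was not measured. Members, lists, motifs and the limits for steps were chosen with earlier results of these data known. Of 10542 genes, 10360 were placed on GRCm39. No RefSeq window was used here for Sp7, Sox9 and Dlx5. A gene of the lists is not reported here by name. Python 3.11.15, numpy 2.4.6, pandas 2.3.3 and matplotlib 3.10.9 were used.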

Additional observations from a re-analysis of the deposited data

How the results depend on the processing

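No replicate could be left out, since each line had 1 library. No paired analysis was possible because no test was run and WT and KO have only replicate number 1 in common. Of 183 values under other settings, 166 were taken as the same and 17 moved. Of the 166, 1 changed sign, the adipogenic factors' median, from -0.025 to 0.015 after subtraction of the neighbour median. Here a count moved by a change of more than 1.5 times and a log2 value by a shift of more than 0.22. Of 36 such values of single members, 35 were the same, and the other was Cebpa with a pseudocount of 5, at 0.80. With that pseudocount, which by construction draws low values together, 0 members were more than 2-fold higher and 0 adipocyte and 0 osteoblast genes more than 2-fold lower, against 1 each. Myf5 was the 1 myoblast marker on the higher side, and that count was 0 with this pseudocount and after subtraction of the neighbour median. With a pseudocount of 0.1, 3 adipocyte genes and 1 adipogenic factor were more than 2-fold lower. With a minimum mean of 5 FPKM, 0 osteogenic factors and 0 osteoblast genes were lower by that much, since Dlx3 and Bglap2 were left out. The share of all genes beyond 2-fold was not taken at these other settings. Changes in these counts therefore cannot be read as particular to the lists. Without a filter the osteoblast median was 0.13, over 24 genes in place of 14. Without Col1a1 and Col1a2, 3 osteoblast genes were more than 2-fold higher. That choice, the limit of 1.5-fold and the neighbour correction of list counts were made after seeing the data. The median of ratios between the libraries was 1.004. Depth limits Sp7 and Msx2, whose WT values are worth about 1 fragment.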
